A study of Mus musculus with 6 samples.

Results

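The 34 genes described here encode regulators of apoptosis and necroptosis in mouse liver: BCL2 family proteins, caspases, the apoptosome, inhibitors of apoptosis, death ligands and receptors with their adaptors, and the kinases and effector of necroptosis. They were chosen by name, as every probe that is not a control and carries one of these gene names in the scanner files, and each gene is represented by its brightest probe over the 6 arrays. All 34 were on the array among 27343 named genes, on 64 probes, and all 34 were tested among 18897 genes. The livers came from 6 male BALB/c mice. Treated animals (n = 3) drank water with microcystin-LR (MC-LR) at 100 µg/L for 12 months from 6 weeks of age, and control animals (n = 3) drank sterile water over the same 12 months. Each liver, described in the labels as coming from an independent mouse, was labelled with a single dye and read on an Agilent array of its own. Values are quantile-normalized log2 signal, on which a difference of 1 is a 2-fold difference. A probe's level is set only against the same probe on other arrays.

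Apoptosis can start inside the cell or at its surface. Inside, BH3-only proteins neutralise the survival proteins BCL2, BCL-XL and MCL1, which frees BAX and BAK to open the outer mitochondrial membrane, and the released cytochrome c assembles APAF1 and caspase-9 into the apoptosome. At the surface, death receptors recruit FADD and caspase-8, and where caspase-8 is held back the kinases RIPK1 and RIPK3 can activate MLKL and cause necroptosis. Hepatocytes are known for high sensitivity to FAS and for their need of BID to link that receptor to mitochondria. MC-LR, a cyanobacterial toxin, inhibits protein phosphatases 1 and 2A and is known for killing hepatocytes at high doses.

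Between 64.9% and 73.7% of spots lay well above background per array, 0 were saturated, and all 34 genes were well above background on all 6 arrays. With 3 arrays a group, precision is set by that number. Slide 1 carried controls 1 and 2, while slide 2 carried all MC-LR arrays together with control 3, so slide and group overlap in part. Control 3 stood apart from the other controls. It was the highest of the 6 arrays for 15 of the 34 genes and the lowest for 3, against 21.1% and 23.4% of all genes tested. The labelled tissue was borne out by the hepatocyte markers Alb, Apoa1, Ttr, Cps1 and Hnf4a, all well above background, with a summed log2 signal of 18.65 to 18.75 in controls and 18.66 to 18.76 with MC-LR.

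None of the 34 genes differed between MC-LR and control livers at an adjusted p under 0.05 (0 higher and 0 lower, limma with Benjamini-Hochberg adjustment over all genes), where 0.0159% of all genes passed on the higher side and 0% on the lower. At an unadjusted p under 0.05, 1 member was higher (Cycs) and 3 were lower (Fas, Casp2 and Tnfrsf10b). Over all genes 7.5% were higher and 5.37% lower by the same rule, so 3 of 34 on the lower side is a share near that of all genes. The smallest adjusted p was that of Fas (0.231). The 3 arrays of each group lay apart for 1 member on the higher side and 3 on the lower, against 11.3% and 9.23% of all genes. The median log2 difference over the 34 genes was -0.11, against -0.01 over all genes tested, and 22 of the 34 lay below 0, against 51.4% of all genes. Without control 3 the median was -0.02. The lower count was 1 without control 1 (535 of all 18897 genes) or without MC-LR 3 (996 of all genes). It was 7 without MC-LR 2 (869 of all genes) and 9 with slide as a block (1535 of all genes). The higher count was 0 when any of control 1, control 2, MC-LR 1 and MC-LR 2 was left out. Of all genes, 818, 1023, 808 and 1270 were then higher, in that order.

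**Figure D1:**
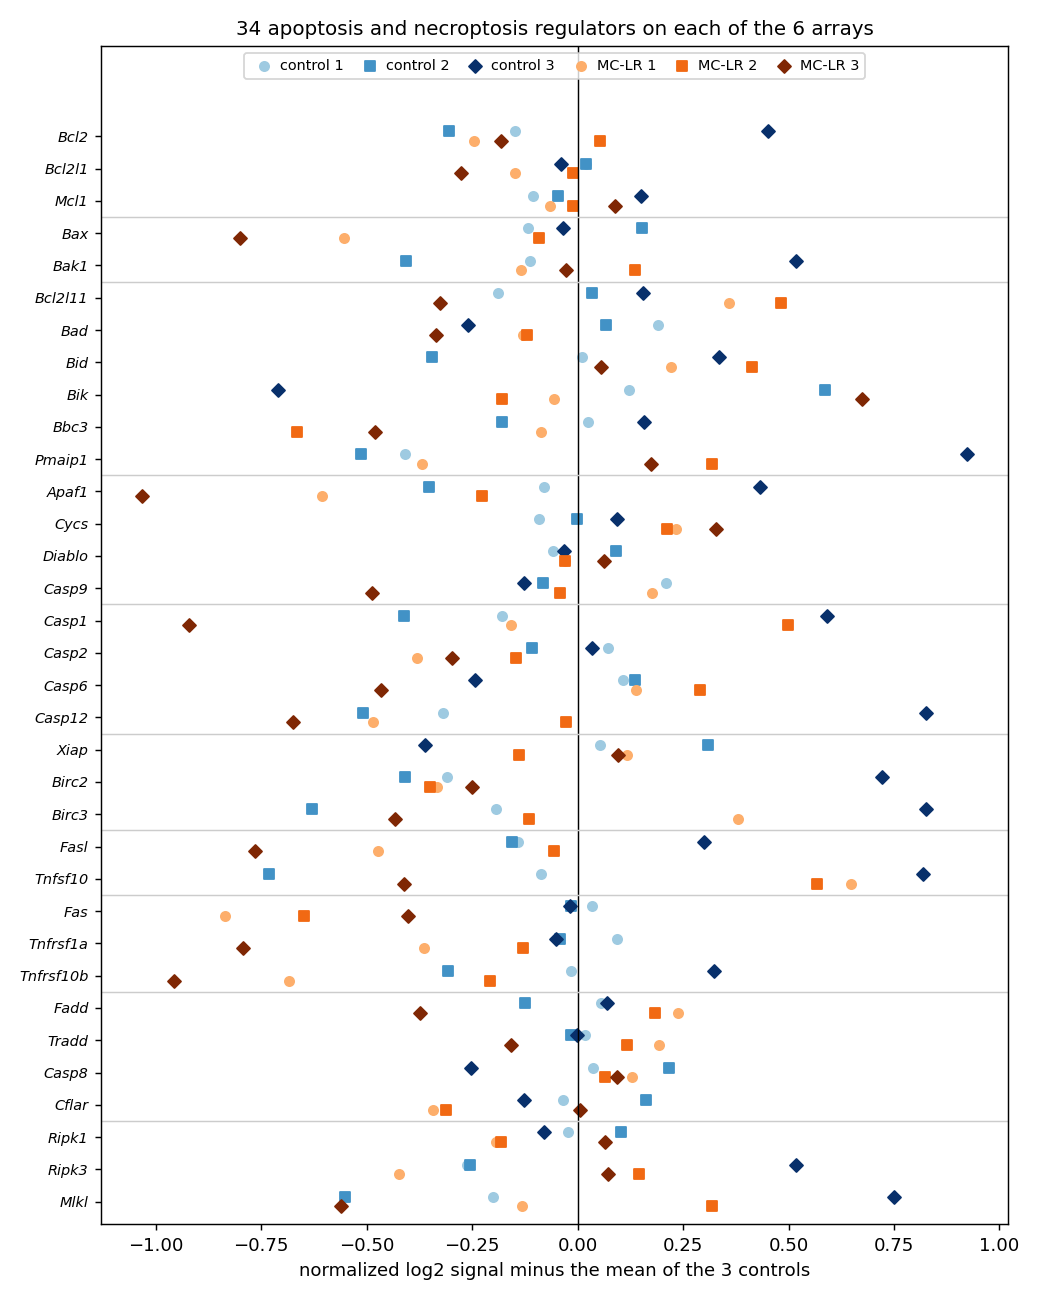
Normalized log2 signal of each of the 34 genes on each array, as the difference from the mean of the 3 controls, with genes grouped by role (grey lines) and 1 symbol per array (blue, controls; orange and brown, MC-LR). For Fas, Casp2 and Tnfrsf1a all MC-LR symbols lie to the left of the controls and for Cycs all lie to the right, and control 3 is the rightmost symbol for 15 genes.

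The interval of each difference shows what these arrays can limit. For 24 of the 34 genes the 95% interval of the brightest probe, in the fit without slide, lay within -1 to 1 on the log2 scale. For that probe this leaves out a change of 2-fold or more in either direction. Bcl2l11 is among the 24 (-0.40 to 0.75), but a dimmer probe, well above background on 1 control array, differed by 1.08. With normexp background correction that dimmer probe differed by 0.15. The interval lay within these limits for 80.4% of all genes. The narrowest was that of Diablo, which encodes the mitochondrial antagonist of inhibitors of apoptosis (SMAC), at -0.23 to 0.23. The widest was that of the death ligand gene Tnfsf10, at -0.87 to 1.41.

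**Figure D2:**
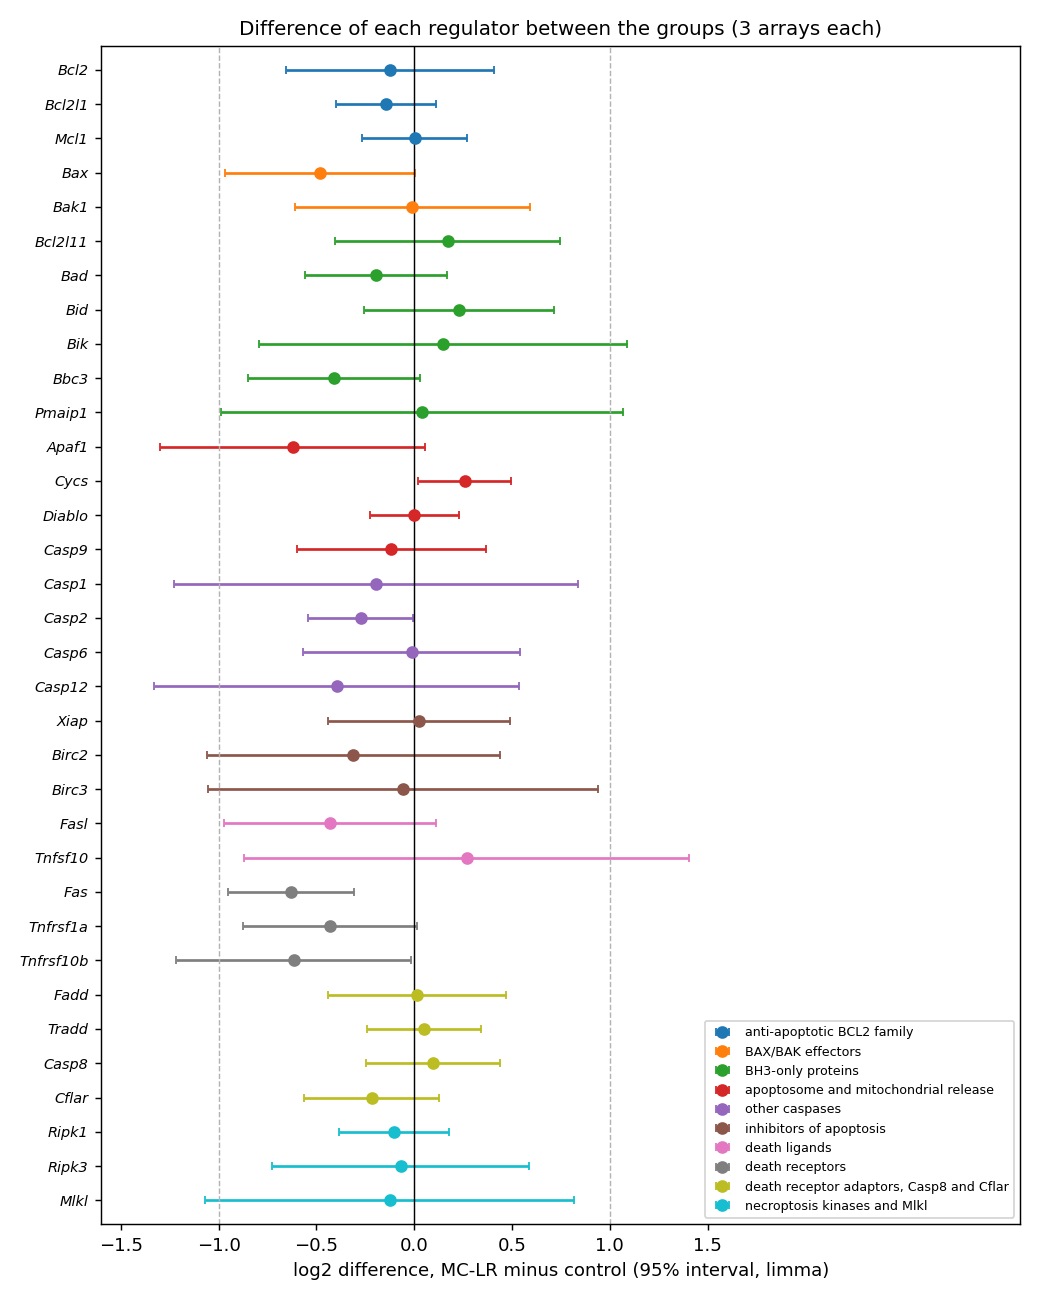
Log2 difference of each gene, MC-LR minus control (points), with its 95% interval from limma (bars), coloured by role, 3 arrays per group; dashed lines mark -1 and 1. The intervals of Fas, Casp2, Tnfrsf10b and Cycs leave out 0, and those of 24 genes lie between the dashed lines.

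Among the death ligands, Fasl encodes the ligand of FAS, carried mainly by T and NK cells. Its brightest probe read 5.41, 5.39 and 5.85 in controls 1 to 3 and 5.07, 5.49 and 4.78 in MC-LR 1 to 3. The groups overlapped, with MC-LR 2 between the controls, and the difference was -0.43 ± 0.22 (log2, SE). Tnfsf10, which encodes the ligand TRAIL, differed by 0.27 ± 0.47 (SE). Its controls ran from 5.93 to 7.47 and its MC-LR arrays from 6.25 to 7.31, so the controls alone spanned more than the difference. In whole liver, fewer cells of a type and less RNA per cell cannot be told apart. The T and NK cell list, 8 of whose 9 genes were tested (Ncr1 was not well above background in either group as a whole), had a summed log2 signal of 10.22 to 11.18 in controls and 10.27 to 10.93 with MC-LR, with control 3 highest. Within the list 4 genes lay above 0 and 4 below, and Gzma, a granule protease of cytotoxic cells, was higher on every MC-LR array than on every control (0.61 ± 0.23, SE; unadjusted p = 0.0401, adjusted p = 0.366, limma). The part of these cells in the Fasl values was not tested.

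The 3 death receptors among the 34 genes all lay on the lower side with MC-LR, where 51.4% of all genes lay below 0. Further receptors of the tumour necrosis factor receptor family went in both directions. Tnfrsf25 and Tnfrsf12a differed by 0.20 and 0.02, and Tnfrsf21, Tnfrsf11b and Tnfrsf1b by -0.18, -0.11 and -0.09, all with overlapping groups. Fas, the receptor of FASL, stood at 12.04, 12.00 and 11.99 in controls 1 to 3 and at 11.18, 11.36 and 11.61 in MC-LR 1 to 3. All MC-LR livers were below all controls, and the controls, including control 3, were tightly grouped. The means were 12.01 ± 0.03 and 11.38 ± 0.22 (log2, SD, n = 3 per group), a difference of -0.63 ± 0.13 (SE), or 1.55-fold lower, with an unadjusted p of 0.0030 and adjusted p = 0.231 (limma). The difference was -0.61 with slide as a block and -0.64 without control 3, and it ranged from -0.74 to -0.53 over 21 alternative settings, at an unadjusted p under 0.05 in all 21. Its adjusted p fell under 0.05 in 1 of them, array weights (adjusted p = 0.0358), and ranged up to 0.666.

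Tnfrsf1a encodes the main receptor of tumour necrosis factor. It stood at 13.20, 13.06 and 13.05 in controls and at 12.74, 12.97 and 12.31 with MC-LR. The groups did not overlap, MC-LR 2 lay 0.08 below the nearest control, and MC-LR 3 was the lowest. The difference was -0.43 ± 0.18 (SE; unadjusted p = 0.0562, adjusted p = 0.399, limma). Tnfrsf10b encodes the mouse TRAIL receptor. It was dim, at 5.38, 5.09 and 5.72 in controls and 4.72, 5.19 and 4.44 with MC-LR, and MC-LR 2 overlapped the controls. The difference was -0.62 ± 0.25 (SE; unadjusted p = 0.0461, adjusted p = 0.382, limma). With normexp background correction on the same probe, it was -0.20 (unadjusted p = 0.0623, limma).

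The probes behind these receptor and ligand values are shown here because other probes of Fasl and Tnfrsf10b gave different sizes or directions. The first 30 bases are given for 3 of the 60-base probes, and the whole of a second Fasl probe, each 5′ to 3′ in lower case, with positions in mm9 as the scanner files give them.
Fas, chr19:34401902-34401961, plus strand: caactcctggtgtgttctctttgccagcaa
Tnfrsf10b, chr14:70177538-70177597, plus strand: ggatcccgaaagtgcgaactctgtgcattc
Fasl, brightest probe, chr1:163711300-163711359, minus strand: agggtgggtctacttactacctcacagagg
Fasl, second probe, chr1:163718079-163718138, minus strand: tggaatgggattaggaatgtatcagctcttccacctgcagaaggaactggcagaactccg
Exons and UTRs of mm9 were not looked up. The second Fasl probe went the other way from the first. It read 4.99, 4.46 and 4.84 in controls and 5.61, 5.20 and 5.56 with MC-LR, every MC-LR array above every control, with a difference of 0.69 ± 0.18 (SE; unadjusted p = 0.00890, adjusted p = 0.266 over all probes, limma). Fasl therefore had no direction shared by its probes. With normexp the first probe differed by -0.13 and the second by 0.20, and the second was then the brighter, so the probe standing for Fasl changes with that correction. The other Tnfrsf10b probes lay on the same side as the brightest, at -0.43 and -1.62. With normexp they differed by -0.16 and -0.24, in that order. The probe at -1.62 was well above background on all 3 control arrays and on 1 of the 3 MC-LR arrays.

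The adaptors that link the receptors to caspase-8 stayed close to 0. Fadd, the adaptor of FAS, differed by 0.02 ± 0.19 and Tradd, the adaptor of the tumour necrosis factor receptor, by 0.05 ± 0.12 (log2, SE). Casp8, the initiator caspase of this pathway, differed by 0.10 ± 0.14, and its 95% interval of -0.24 to 0.44 leaves out a 2-fold change. Cflar encodes FLIP, the decoy that limits caspase-8, and had the smallest p of these 4. It read 12.46, 12.65 and 12.36 in controls and 12.15, 12.18 and 12.50 with MC-LR. MC-LR 1 and 2 lay below all controls and MC-LR 3 among them, for a difference of -0.22 ± 0.14 (SE; unadjusted p = 0.175, adjusted p = 0.555, limma). Cflar had 7 probes, of which 6 lay below 0 (-0.31 to -0.04) and 1 above (0.13). For the probe at -0.31 every MC-LR array lay below every control (unadjusted p = 0.0157, adjusted p = 0.300 over all probes, limma). The same held for a probe at -0.21, and for the others the groups overlapped.

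In the necroptosis branch no group difference exceeded the spread of the arrays. Ripk1, which encodes the kinase at the fork between survival, apoptosis and necroptosis, read 9.63, 9.75 and 9.57 in controls and 9.46, 9.47 and 9.72 with MC-LR. MC-LR 3 lay among the controls, and the difference was -0.10 ± 0.12 (SE). The other 2 Ripk1 probes lay on the other side of 0, at 0.11 each, and the mean of the 3 probes differed by 0.04. Ripk3, which phosphorylates MLKL, differed by -0.07 ± 0.27, and Mlkl, whose protein breaches the plasma membrane, by -0.13 ± 0.39. Mlkl read 9.93, 9.58 and 10.88 in controls 1 to 3 and ran from 9.57 to 10.45 with MC-LR. The top of its control range was set by control 3, which was the highest array for Mlkl and for Ripk3.

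Of the anti-apoptotic BCL2 family, Bcl2l1, which encodes BCL-XL, read 9.32, 9.32 and 9.26 in controls and 9.15, 9.29 and 9.02 with MC-LR. MC-LR 2 lay within the controls, and the difference was -0.15 ± 0.10 (log2, SE; adjusted p = 0.591, limma). The other Bcl2l1 probes differed by -0.16, with every MC-LR array below every control, and by 0.12, with overlapping groups. The mean of the Bcl2l1 probes differed by -0.06. Mcl1, a short-lived survival protein on which hepatocytes depend, differed by 0.00 ± 0.11, with a 95% interval of -0.26 to 0.27. Bcl2 itself differed by -0.12 ± 0.22, with control 3 highest at 8.26 against 7.86 or less on the other 5 arrays.

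Of the membrane-permeabilising effectors, Bax read 9.17, 9.44 and 9.25 in controls and 8.73, 9.19 and 8.48 with MC-LR. MC-LR 2 lay just inside the control range and the other MC-LR arrays below it. The difference was -0.48 ± 0.20 (SE; unadjusted p = 0.0514, adjusted p = 0.389, limma); adding slide to the fit gave -0.45. Bak1, its partner, differed by -0.01 ± 0.25. A second Bak1 probe differed by -0.24 ± 0.18 (SE), and the mean of the Bak1 probes by -0.12. Bax and the brightest Bak1 probe thus had estimates of different size, but their 95% intervals, -0.97 to 0.00 and -0.61 to 0.59, overlapped. The difference between them was not tested.

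The 6 BH3-only genes went in both directions. Bbc3, which encodes PUMA, had the smallest p, with 10.76, 10.56 and 10.89 in controls and 10.65, 10.07 and 10.26 with MC-LR. MC-LR 1 lay among the controls and the others below them, for a difference of -0.41 ± 0.18 (SE; unadjusted p = 0.0619, adjusted p = 0.409, limma). Bad, a sensor of growth factor signals, differed by -0.20 ± 0.15. Bid, which couples FAS to mitochondria, differed by 0.23 ± 0.20, Bcl2l11 (BIM) by 0.17 ± 0.24, Bik by 0.15 ± 0.39 and Pmaip1 (NOXA) by 0.04 ± 0.42. Pmaip1 was 8.42 in control 3 against 6.98 to 7.81 elsewhere, and Bik was 6.63 in control 3 against 7.16 to 8.02 elsewhere. Without control 3 the difference was 0.50 ± 0.23 for Pmaip1 and -0.21 ± 0.31 for Bik (SE). Bcl2l11 and Bad had dimmer probes on the higher side. Those of Bcl2l11 differed by 0.57 and 1.08 and passed the background flag on 1 control array and all 3 MC-LR arrays, and that of Bad differed by 0.42. With normexp these dimmer probes differed by 0.10, 0.15 and 0.15, in that order.

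At the mitochondrial exit, Cycs, the gene of cytochrome c, was the member on the higher side at an unadjusted p under 0.05. It read 13.86, 13.95 and 14.05 in controls and 14.19, 14.17 and 14.28 with MC-LR, every MC-LR array above every control. The means were 13.96 ± 0.09 and 14.21 ± 0.06 (log2, SD, n = 3 per group), a difference of 0.26 ± 0.10 (SE), or 1.20-fold (unadjusted p = 0.0382, adjusted p = 0.363, limma). With slide as a block the difference was 0.16 (unadjusted p = 0.230). The brightest Cycs probe, printed because the gene's other probes did not share its difference, is given whole with its mm9 position.
Cycs, chr6:50515255-50515314, minus strand: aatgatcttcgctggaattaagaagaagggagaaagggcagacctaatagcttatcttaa
The other 2 Cycs probes, which share 40 bases with each other, differed by 0.00 ± 0.12 and 0.05 ± 0.11 (SE). With the mean of the 3 probes the difference was 0.10 (unadjusted p = 0.322).

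Cytochrome c acts through APAF1, the scaffold of the apoptosome. Apaf1 was dim, at 6.38, 6.11 and 6.89 in controls and 5.86, 6.24 and 5.43 with MC-LR, and differed by -0.62 ± 0.28 (SE; unadjusted p = 0.0665, adjusted p = 0.416, limma). MC-LR 2 overlapped the controls. The difference was -0.24 with normexp on the same probe and -1.05 with slide as a block. Casp9, the caspase of the apoptosome, differed by -0.12 ± 0.20, and Diablo by 0.00 ± 0.09.

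**Figure D3:**
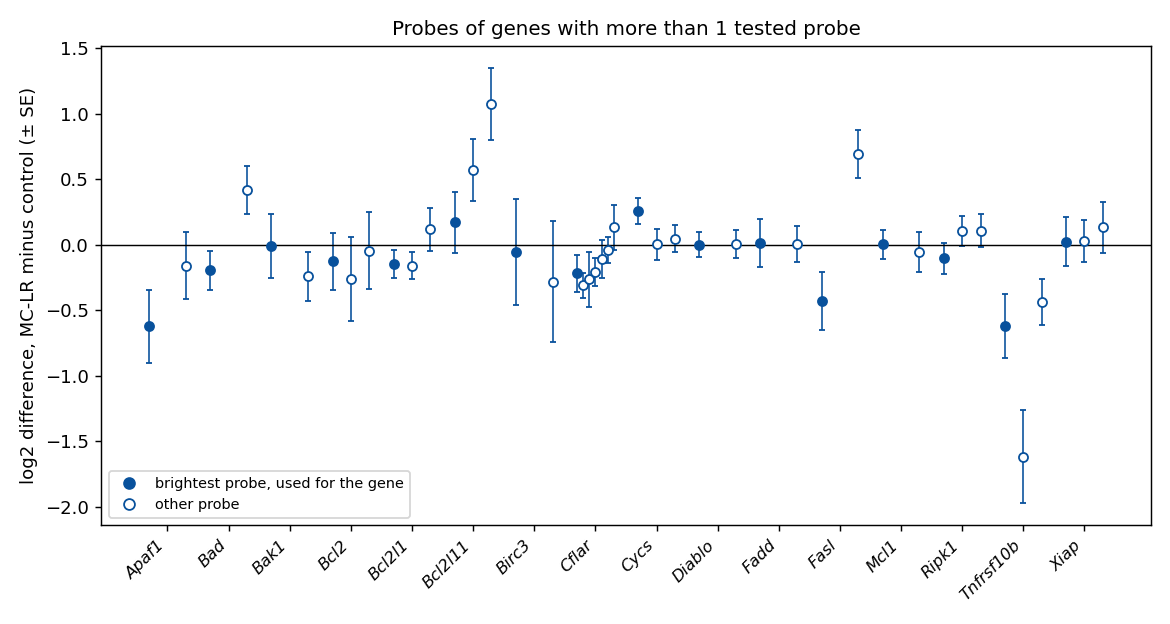
Log2 difference, MC-LR minus control (± SE, limma over all probes), of every tested probe of the 16 genes with more than 1; filled points are the brightest probes. The probes of Fasl lie on opposite sides of 0, at -0.43 and 0.69, and only the brightest Cycs probe lies clear of 0.

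Across these 16 genes, 21 of the 28 other probes differed in the same direction as the brightest. Of all 62 tested member probes, 3 were higher and 7 lower at an unadjusted p under 0.05 (limma), where 7.94% and 5.02% of all probes were, and 0 passed the adjusted threshold. These counts include a Bcl2l11 and a Tnfrsf10b probe that passed the filter through the group where they are high. The lower probes were every Tnfrsf10b probe, all dim, and a probe each of Fas, Casp2, Bax and Cflar. Of the 58 probes well above background on all 6 arrays, 2 were higher and 6 lower, against 6.99% and 5.31% of all such probes. Tnfrsf10b thus counts more than once on the lower side of both counts.

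The remaining caspases lay at or below 0. Casp2, a caspase linked to DNA damage and polyploidy, read 10.99, 10.81 and 10.95 in controls and 10.54, 10.77 and 10.62 with MC-LR. The groups did not overlap, though MC-LR 2 came within 0.04 of control 2. The difference was -0.27 ± 0.11 (SE), or 1.21-fold lower (unadjusted p = 0.0454, adjusted p = 0.379, limma). Casp6, an effector caspase, differed by -0.01 ± 0.23. Casp1, which matures interleukin-1 beta in the inflammasome, differed by -0.19 ± 0.42 and Casp12, a caspase of the endoplasmic reticulum, by -0.40 ± 0.38. Casp1 ran from 11.43 to 12.44 in controls and from 10.93 to 12.34 with MC-LR, so its groups overlapped over most of their range. Casp12 stood at 12.26 in control 3 and at 10.76 to 11.41 on the other 5 arrays.

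Among the inhibitors of apoptosis, Birc2 (cIAP1) read 9.69, 9.59 and 10.72 in controls and 9.67, 9.65 and 9.75 with MC-LR. The MC-LR arrays fell close together and beside controls 1 and 2, and control 3 alone was about 1 log2 unit higher. The difference was -0.31 ± 0.31 (SE; adjusted p = 0.70, limma), and 0.05 without control 3. Birc3 (cIAP2), an NF-kappa-B target, differed by -0.06 ± 0.41, with control 3 highest at 11.46. Xiap, the direct inhibitor of caspases, differed by 0.03 ± 0.19, with control 3 lowest at 7.71.

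Values in control 3 therefore set much of the spread. The median excess of control 3 over the other controls was 0.18 for the 34 genes and -0.02 for all genes tested. The excess was 1.38 for Pmaip1, 1.24 for Casp12, 1.24 for Birc3, 1.23 for Tnfsf10, 1.13 for Mlkl, 1.08 for Birc2, 0.89 for Casp1 and 0.78 for Bak1 and for Ripk3 (log2). With slide as a block, which sets the MC-LR arrays in effect against control 3, 9 members were lower and 1 higher at an unadjusted p under 0.05 (limma), against 8.12% and 7.97% of all genes, and 0 passed the adjusted threshold, which 0.0794% of all genes did. The lower ones were Birc2 (-1.03), Casp12 (-1.22), Bcl2 (-0.58), Apaf1 (-1.05), Fas (-0.61), Pmaip1 (-0.88), Tnfrsf10b (-0.94), Bak1 (-0.53) and Fasl (-0.73), and Casp8 (0.35) was the higher one. The smallest adjusted p was 0.115, for Birc2. Against controls 1 and 2 alone the same genes differed by 0.05, 0.02, 0.10, -0.41, -0.64, 0.50, -0.45, 0.25, -0.28 and -0.03 in that order. Fas, Tnfrsf10b, Apaf1 and the brightest Fasl probe lay below both sets of controls, and Fas did so by nearly the same amount. On the second Fasl probe every MC-LR array lay above every control.

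**Figure D4:**
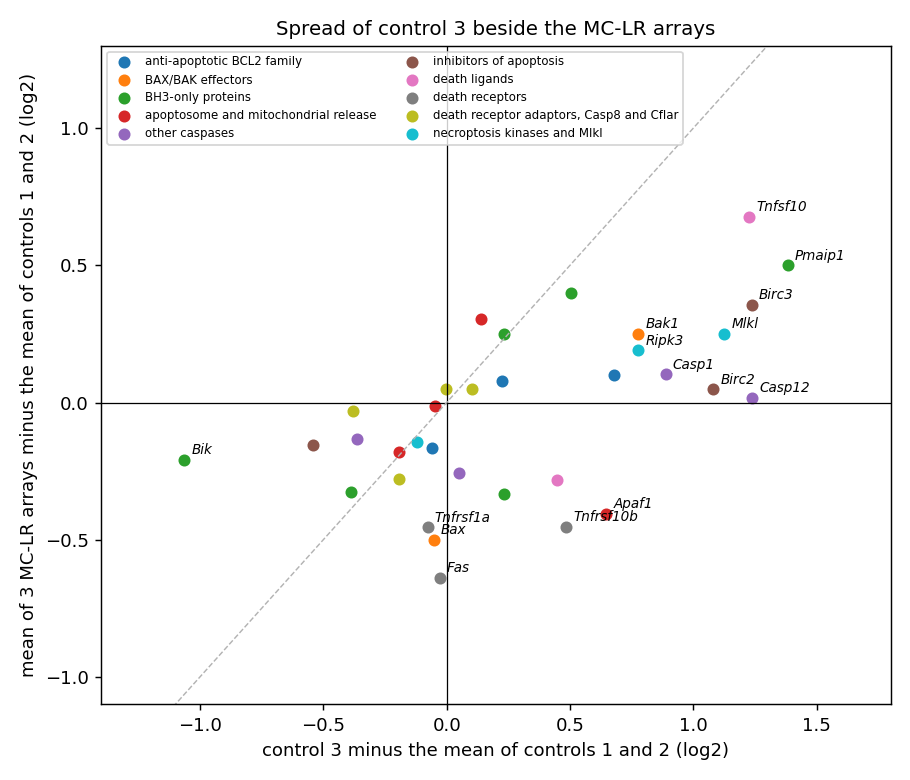
For each of the 34 genes, control 3 minus the mean of controls 1 and 2 (horizontal, log2) against the mean of the 3 MC-LR arrays minus the mean of controls 1 and 2 (vertical, log2), coloured by role; the dashed line marks equal values. Genes at the right, such as Pmaip1 (1.38), Casp12 (1.24) and Birc2 (1.08), were higher in control 3 than on any other array, whereas Fas lies near 0 on the horizontal axis and at -0.64 on the vertical.

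Control 3 also stood high in markers of some other cell types. Its summed marker signal was the highest of the 6 arrays for 6 of the 8 cell type lists, the exceptions being hepatocytes and endothelial cells. Such sums weigh the brightest genes most. The stellate cell sum is mostly Dcn (15.82 in control 3) and the cholangiocyte sum mostly Spp1 (13.55 in control 3). By gene, control 3 was the highest array for Dcn and Des but not for Lrat, Reln, Colec11 and Hand2. Among the cholangiocyte genes it was the highest for Krt19 and Spp1 but not for Krt7, Epcam and Sox9. For Kupffer cells and macrophages (8 of 8 genes tested) the sum was 15.31 to 16.01 in controls and 14.86 to 15.56 with MC-LR (log2). For B cells (4 of 4) it was 9.86 to 11.28 and 9.68 to 10.81. For neutrophils (4 of 6, Elane not being well above background on all arrays of a group) it was 12.90 to 13.65 and 11.74 to 13.21. For cholangiocytes (5 of 5) it was 12.75 to 13.69 and 12.11 to 13.47, and for stellate cells (6 of 6) 15.76 to 16.02 and 15.65 to 15.98. For endothelial cells (7 of 7) the sum was 14.27 to 14.93 in controls and 14.09 to 14.50 with MC-LR, and control 3 was the lowest control. That sum is mostly Clec4g, and by gene 6 of the 7 lay below 0, with a median of -0.35. The median was -0.40 against controls 1 and 2 and 0.02 against control 3 alone. Kdr, Stab2, Clec4g and Tie1 lay above control 3, and Pecam1, Cdh5 and Lyve1 lay below it. Pecam1 (-0.54 ± 0.10, SE; unadjusted p = 0.0016, adjusted p = 0.216, limma) and Cdh5 (-0.44 ± 0.14, SE; unadjusted p = 0.0215, adjusted p = 0.320, limma), both endothelial junction proteins, were lower on every MC-LR array than on every control. All 8 Kupffer cell genes (median -0.23) and all 4 tested neutrophil genes (median -0.72) also lay below 0, with overlapping groups. The part of endothelial and blood-derived cells in the lower values of Fas, Tnfrsf1a and Tnfrsf10b was not tested. The part of any of the listed cells in the values of Casp1, Casp12, Birc3, Mlkl and the other members high in control 3 was not tested either.

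Around the 34 genes, a further 59 genes of the same pathways were listed, of which 58 had a probe and 55 were tested. Of these, 0 passed the adjusted threshold, and 5 were higher and 3 lower at an unadjusted p under 0.05 (limma), against 7.5% and 5.37% of all genes. Of the 53 that were well above background on all 6 arrays, 4 were higher and 3 lower, against 6.59% and 5.68% of all such genes. Bnip3, a mitochondrial BH3-like protein that promotes mitophagy, had the smallest p. It read 13.29, 13.56 and 13.37 in controls and 14.14, 14.11 and 14.31 with MC-LR, a difference of 0.78 ± 0.12 (SE; adjusted p = 0.159, limma); adding slide to the fit gave 0.82. All MC-LR arrays lay above all controls, by more than the range of either group.

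Bok, a BAX-like effector, went the other way, at 12.70, 12.16 and 12.35 in controls and 11.60, 11.74 and 11.50 with MC-LR, a difference of -0.79 ± 0.16 (SE; adjusted p = 0.231, limma); adding slide to the fit gave -0.73. Of the mitochondrial genes, Ppif, which encodes cyclophilin D of the permeability transition pore, differed by 0.42 ± 0.10 (adjusted p = 0.259, limma) and the outer-membrane channel Vdac2 by 0.35 ± 0.09 (adjusted p = 0.270, limma). In both, every MC-LR array lay above every control. Tab2, an adaptor of the kinase TAK1 in tumour necrosis factor signalling, differed by -0.63 ± 0.16, and by -0.36 with slide as a block. The ligand gene Tnfsf12 (TWEAK) differed by 0.99 ± 0.35, but only 1 of its 3 control arrays was well above background. By class, the genes below 0 numbered 1 of 12 mitochondrial factors and nucleases, 3 of 8 other BCL2 family genes, 5 of 8 other tumour necrosis factor family genes, 9 of 14 genes of its receptor signalling, 3 of 4 other inhibitors of apoptosis, 4 of 5 other caspases and inflammasome genes, and 4 of 4 necroptosis partners, where 51.4% of all genes were below 0. The medians of these classes ran from -0.16 to 0.19. Tumour necrosis factor itself followed the pattern of control 3, with Tnf at 8.26 there and 5.72 to 6.54 on the other 5 arrays, a value picked out after it was seen.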

How the data were processed

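Groups came from the sample titles. The submitters' processing notes name Agilent Feature Extraction 10.7 as the source of the spot values. The processed intensity was spatially and multiplicatively detrended, with surrogate values in use for dim spots and mm9 as the build, per the file headers. The deposited table holds log2 values that the authors quantile normalized in GeneSpring, per the series' design text; its columns correlated at r of 0.9982 or more with log2 of their own array's processed signal, and it served as an alternative. The flag columns (other) are those of the deposited files.

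Processed signals under 1 were set to 1, outlier spots left out, replicate spots averaged, and log2 values of 41174 probes quantile normalized. A probe was kept (28481 were) if every array of either group flagged it well above background, and the brightest probe represented a gene. Probes of other genes were named through RefSeq tables (GRCm38.p6): 27668 probes by accession, 6060 by symbol and 7446 by the file's name. limma 3.58.1 in R 4.3.3 (lmFit, eBayes, two-sided) compared the groups, with Benjamini-Hochberg adjustment over 18897 genes. The fit was tested on simulated data. Members, lists and tests were chosen with earlier results of these data known. Given on every array, by rule, are members at an unadjusted p under 0.05 or with groups apart, and otherwise the member with the smallest p of each role; Apaf1, Tnf and single arrays of other members were added after their values were seen. Of the further genes, those named have the 4 smallest p-values or, apart between groups, the 2 largest differences per direction. Tnfrsf25, Tnfrsf12a, Tnfrsf21, Tnfrsf11b and Tnfrsf1b are also given, as the listed receptors of their family.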

Additional observations from a re-analysis of the deposited data

How the results depend on the processing

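Across scalings, background correction, the deposited values, filters, probe choices, slide terms, trend and robust fitting and each array left out, 0 members passed the adjusted threshold except 1 lower gene, Fas, with array weights, where also 3 further pathway genes were higher and 2 lower; 890 genes in all then passed. With the fit used in the report, the count at an adjusted p under 0.1 was 0 in each direction. The count of members higher at an unadjusted p under 0.05 was 2 with normexp and 0 with slide as a random block or within slide 2, and the lower count was 9 with slide as a fixed block, 8 within slide 2, 5 with trend and robust fitting and 7 with array weights. With slide as a fixed block 12 further pathway genes were lower, where 1535 of all genes were. The members' median was then -0.34, against 0.02 over all genes, and both medians were the same within slide 2. With normexp 2 members lay apart on the higher side, where 11.3% of all genes did so in the fit used in the report. Leaving out single arrays gave 0 to 1 higher and 1 to 7 lower members, a median of -0.18 to -0.02, and 3 to 7 higher and 2 to 4 lower pathway genes, with 0 adjusted calls in each. Of all genes, 808 to 2012 were then higher and 535 to 1917 lower. With the replicate number as a block, 0 members were higher and 2 lower, against 1081 and 753 of all genes. Deviations of same-numbered arrays from their group means correlated at 0.19, -0.32 and -0.20. Controls 1 and 2 lay on another slide than control 3, so these values cannot settle whether the numbers pair the mice. Median scaling moved the median of all genes from -0.01 to 0.03. Under normexp another probe was the brightest for Fasl and Tnfrsf10b. With the same probes kept, an alternative added after seeing the data, 1 member was higher and 3 lower, against 1405 and 1184 of all genes. The dim Fasl, Tnfrsf10b and Apaf1 then differed by -0.13, -0.20 and -0.24.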
